A study of Mus musculus with 3 samples.

Results

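The genes described here are 8 enzymes of the route from membrane arachidonic acid to prostaglandins and their reduced products, out of 41743 gene symbols in the count tables. They are the cytosolic phospholipase Pla2g4a, the cyclooxygenases Ptgs1 and Ptgs2, the prostaglandin E synthases Ptges, Ptges2 and Ptges3, and the prostaglandin reductases Ptgr1 and Ptgr2. The rows were found by symbol, and all 8 were present and passed the expression filter, among 12478 genes tested. The group was chosen by measured values, since the ezrin over IgG differences of these libraries, those of Ptgr1 and Pla2g4a among them, were known when it was drawn up. The ezrin over IgG values of the 8 genes are therefore given as a description. No p is given for them, and the calls they received in the fit across all genes are counted but support nothing.

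The libraries hold RNA recovered by immunoprecipitation (RIP-seq) from a derivative of K7M2, a mouse osteosarcoma line. Every library came from cells of 1 genotype, Ezrin -/- (made with CRISPR/Cas9) with stable rescue by a T567A ezrin cDNA, named COL3A, with no treatment. In T567A ezrin an alanine stands in place of the threonine whose phosphorylation opens the protein, so the rescue protein stays closed. Precipitation with ezrin antibody was sequenced as 2 libraries, ezrin 1 and ezrin 2, and precipitation with mouse IgG, the background, as 1 library. The sources used here give neither the promoter of the rescue vector nor whether the line is 1 clone. Separate cultures are not named for the ezrin libraries, so their spread, and the p-values that rest on it, may be technical. The comparison asks which messages take a larger share of the counts with ezrin antibody than with IgG, in cells whose ezrin is closed. Counts were scaled within each library, so the amounts of RNA recovered are not compared. No library of the RNA before precipitation is among those used.

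Arachidonic acid is held in membrane phospholipids until a phospholipase A2 frees it. Cyclooxygenases turn the free acid into prostaglandin H2, which terminal synthases convert into prostaglandin E2 and other prostanoids that signal through G protein-coupled receptors. Prostaglandin reductases act on oxidized products further along the route and so help to inactivate them. In bone, prostaglandin E2 made through inducible cyclooxygenase-2 is known to affect both the formation and the resorption of bone.

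Total counts were 19676595 in ezrin 1, 16196329 in ezrin 2 and 10124580 in IgG, and 17575 symbols had a count in at least 1 library. The message of ezrin itself, Ezr, stood at 349 and 350 CPM with ezrin antibody and 155 CPM with IgG (counts per 1000000, adjusted by edgeR's TMM factors). By edgeR's quasi-likelihood test at an adjusted p of 0.05, 36.4% of genes tested were called, 19.0% higher and 17.4% lower with ezrin antibody. On the scale of log2(RPKM + 1), limma called 3734 genes higher and 964 lower, where edgeR had called 2377 and 2171. Of 10 osteoblast and osteosarcoma markers, Col1a2, Sparc, Col1a1, Spp1 and Runx2 averaged at least 10 CPM. Alpl had 28, 17 and 33 counts in ezrin 1, ezrin 2 and IgG, Ibsp had no count, and Sp7, Bglap and Dmp1 had at most 3 counts in any library. By edgeR Col1a2, Sparc and Spp1 were called higher, Runx2 and Alpl lower, and Col1a1 was not called. The macrophage markers Csf1r (917 ± 66.4 CPM with ezrin antibody, SD, n = 2, against 1234 CPM) and Cd14 were present, whereas Ptprc and Adgre1 had no count, and Cd68, Lyz2 and Itgam had at most 7 counts in a library. The summed macrophage markers stood at 991, 900 and 1260 CPM in ezrin 1, ezrin 2 and IgG. Csf1r alone made up 964, 870 and 1234 CPM of these sums. The part of these markers in the values of the 8 genes was not tested. The 6 mast cell markers had no count, and the summed megakaryocyte, endothelial and epithelial markers stayed at or below 7.73 CPM in each library. Each library is bulk material, in which the number of cells that hold a message and the amount per cell cannot be told apart.

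Pla2g4a had 4.51 times and Ptgr1 4.82 times the CPM with ezrin antibody that they had with IgG, and Ptgr2 had 1.71 times. Ptgs1, Ptgs2, Ptges and Ptges3 lay at or just below their IgG level in CPM, though above it in RPKM. Ptges2 lay between these groups, at 1.32 times. Of the 8 genes, 3 were called higher (Pla2g4a, Ptgr1 and Ptgr2) and 5 were not called. None was called lower by edgeR (0 of 8 also at an unadjusted p under 0.05) or by DESeq2. Among all genes tested 19.0% were called higher, but the group was chosen on this contrast, so nothing is read from these counts, whichever tool made them. The median log2 fold was 0.17 over the 8 genes and -0.02 over all 12478 genes tested. Both ezrin libraries exceeded the IgG library in CPM for 4 of the 8 genes, against 42.6% of all genes tested. Both lay below it for Ptgs1, Ptgs2 and Ptges, and the share of all genes below it was not counted. For Ptges3 ezrin 1 lay below IgG and ezrin 2 was level with it.

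**Figure D1:**
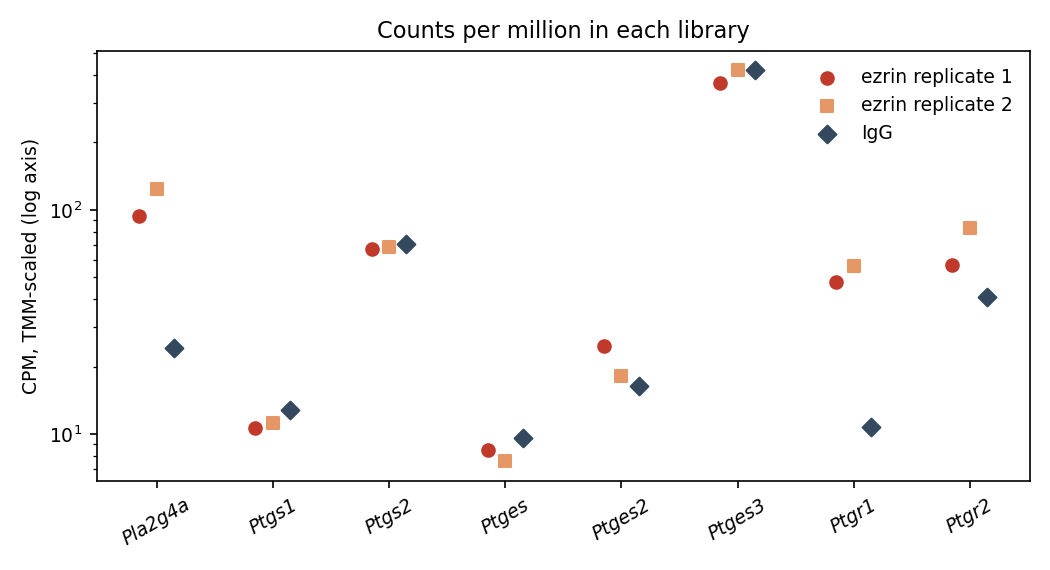
The plot shows TMM-scaled CPM (log axis) of the 8 enzyme genes, with 1 point for each library. The IgG point lies far below both ezrin points for Pla2g4a and Ptgr1, less far below them for Ptgr2, and close to them for the other genes.

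**Figure D2:**
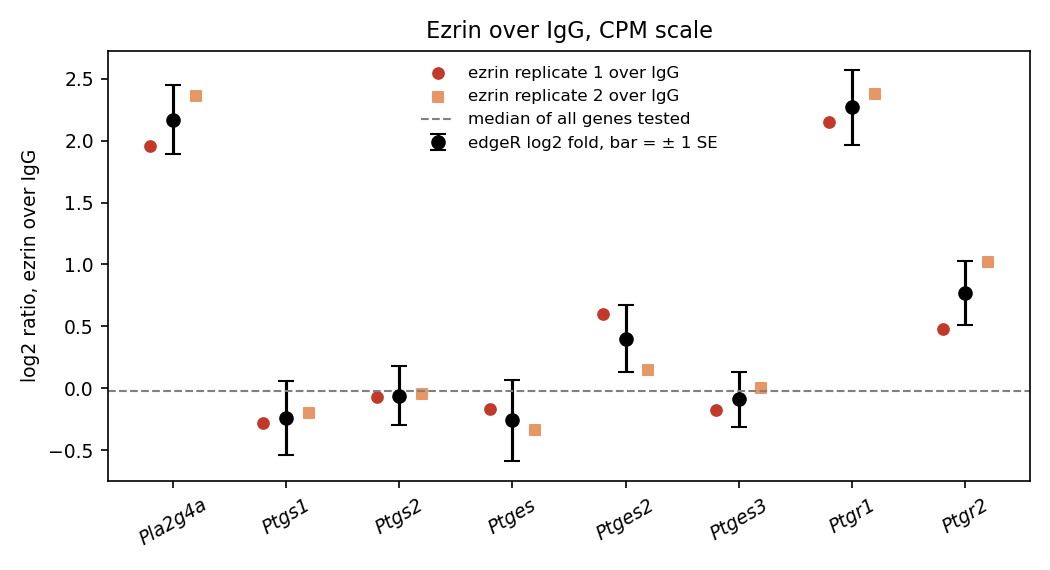
Black points are edgeR's log2 fold of ezrin over IgG with bars of 1 SE, coloured points are the log2 CPM ratio of each ezrin library to the IgG library, and the dashed line is the median of all genes tested (-0.02). Pla2g4a (2.17) and Ptgr1 (2.27) stand apart from the other 6 genes, which range from -0.26 to 0.77.

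The 3 sequences printed next come from windows of 250 bases upstream of RefSeq start sites of Pla2g4a, Ptgr1 and Ptgs2 in GRCm38.p6. Pla2g4a and Ptgr1 are shown because their messages moved together in these libraries, and Ptgs2 because it lies close to Pla2g4a on the same chromosome and did not move with it. They describe where the genes start, on the reference strain. The precipitated RNA itself is the transcript, whose sequence was not used here. They lie at chr1:149961291-149961540 (minus strand, Pla2g4a, the outer of 2 listed start sites), chr4:58987132-58987328 (minus strand, Ptgr1) and chr1:150099781-150100030 (plus strand, Ptgs2). The start site listed for Ptgr1 lies inside its gene span, so the 53 bases of its window within the span are left out and 197 are printed. Part of the Ptgs2 window lies within the span of the noncoding gene Ptgs2os. Capitals mark matches, on either strand, to the motifs named after the sequences.
Pla2g4a: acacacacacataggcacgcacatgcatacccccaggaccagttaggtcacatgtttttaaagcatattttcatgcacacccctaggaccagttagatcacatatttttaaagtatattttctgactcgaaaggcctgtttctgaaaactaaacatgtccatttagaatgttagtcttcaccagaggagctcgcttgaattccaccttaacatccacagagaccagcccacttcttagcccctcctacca
Ptgr1: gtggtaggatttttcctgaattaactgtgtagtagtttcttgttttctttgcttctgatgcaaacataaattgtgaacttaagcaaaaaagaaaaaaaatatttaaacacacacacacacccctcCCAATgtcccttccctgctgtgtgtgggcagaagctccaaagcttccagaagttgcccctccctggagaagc
Ptgs2: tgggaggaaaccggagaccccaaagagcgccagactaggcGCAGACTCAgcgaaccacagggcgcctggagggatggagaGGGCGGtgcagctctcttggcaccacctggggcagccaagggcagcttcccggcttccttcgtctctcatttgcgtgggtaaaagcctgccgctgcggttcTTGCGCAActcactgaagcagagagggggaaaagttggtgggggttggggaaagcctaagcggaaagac

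The motifs searched on both strands were the TATA box TATAAA, the CCAAT box CCAAT, the GC box GGGCGG, the E-box CACGTG, the full cyclic AMP response element TGACGTCA, the C/EBP palindrome TTGCGCAA and the antioxidant response core TGANNNNGC. They were chosen after results of these data were known. The Ptgr1 window held 1 CCAAT box and 2 GC boxes, the latter on the opposite strand and in the stretch inside the gene span that is not printed. The Ptgs2 window held the C/EBP palindrome, 1 GC box and, on the opposite strand, 1 antioxidant response core. None of these letters was found in the Pla2g4a window, and the window of its other start site, not printed, held 1 TATA box. No match overlapped another. Among 32851 windows of the same length, 33.8% held the CCAAT box, 32.7% the GC box, 35.2% the antioxidant response core and 0.164% the C/EBP palindrome. The TATA box, the E-box and the cyclic AMP element, found in 12.4%, 6.02% and 1.55% of windows, were in none of these 3 windows. A match is a description of the letters, not a site. The whole windows were 43.2% (Pla2g4a), 46.4% (Ptgr1) and 61.6% (Ptgs2) G and C.

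Pla2g4a encodes cytosolic phospholipase A2 alpha, which is drawn to membranes by calcium and cuts arachidonic acid from phospholipids. It spans bases 149829618 to 149961290 of chromosome 1. Its counts were 1889 in ezrin 1, 2078 in ezrin 2 and 231 in IgG, or 94.1, 124 and 24.1 CPM. Both ezrin libraries were thus well above IgG, at 3.90 and 5.13 times its CPM. The mean was 109 ± 21.0 CPM (SD, n = 2), and edgeR's log2 fold was 2.17 (SE 0.28). Of the 8604 genes averaging 10 CPM or more, Pla2g4a had the log2 fold of rank 10 from the top, and it ranked 137 among all 12478 genes tested.

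The cyclooxygenases did not move with it. Ptgs1, the constitutive enzyme cyclooxygenase-1, lies on chromosome 2 at 36216742 to 36258593. It had 213, 188 and 123 counts, or 10.6, 11.2 and 12.9 CPM, in ezrin 1, ezrin 2 and IgG. Its ezrin libraries lay slightly under IgG, with a log2 fold of -0.24 that is smaller than its SE of 0.30. Ptgs2, the inducible enzyme cyclooxygenase-2, lies on chromosome 1 at 150100031 to 150108234. It had 1343, 1140 and 673 counts, or 66.9, 68.0 and 70.3 CPM. The 3 values lay within a few CPM of each other, and the log2 fold was -0.06 (SE 0.24). Within each library the count of Ptgs2 was 6.31 (95% interval 5.45 to 7.32), 6.06 (5.19 to 7.11) and 5.47 (4.51 to 6.69) times that of Ptgs1 in the same order. The intervals are exact binomial intervals, cover counting error only, and overlap, so a difference in the balance of the cyclooxygenases was not detectable at this depth.

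The ratio of the phospholipase to the inducible cyclooxygenase describes the same known contrast in another way and is no test of it. It does not depend on how libraries are scaled, because both counts come from the same library. There were 1.41 (95% interval 1.31 to 1.51) and 1.82 (1.69 to 1.96) Pla2g4a counts for each Ptgs2 count in ezrin 1 and ezrin 2 and 0.343 (0.294 to 0.399) in IgG. The value was lowest in IgG, and the intervals of the ezrin libraries did not overlap each other either. These intervals hold no spread between IgG libraries, since there was 1.

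**Figure D3:**
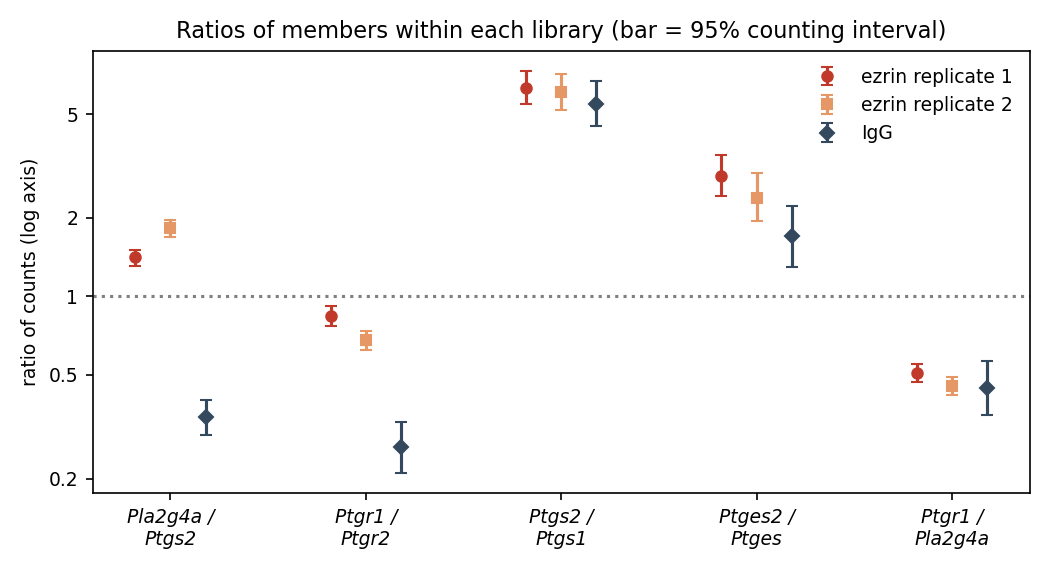
Each point is the ratio of the counts of a pair of the enzyme genes inside 1 library (log axis), with an exact 95% interval for counting error, and the dotted line marks equal counts. The ratios Pla2g4a over Ptgs2 and Ptgr1 over Ptgr2 were lower with IgG than in either ezrin library, while Ptgs2 over Ptgs1 and Ptgr1 over Pla2g4a had overlapping intervals across antibodies.

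Pla2g4a and Ptgs2 lie close together on chromosome 1. They are transcribed away from each other, and their start sites lie 138741 bases apart. Ptgs2os, a long noncoding RNA on the strand opposite to Ptgs2, ends its span 157 bases before the start of Ptgs2. It had 48, 39 and 48 counts in ezrin 1, ezrin 2 and IgG, or 2.39, 2.33 and 5.02 CPM. It was called lower (log2 fold -1.09, SE 0.45, edgeR adjusted p = 0.0473), but 0 of the 8 alternative analyses that could test it called it. Ptgs2os2, the noncoding RNA known as lincRNA-Cox2, begins 50809 bases beyond the other end of Ptgs2 and was looked up because of that name. Its counts were 33, 29 and 26, its log2 fold was -0.69 (SE 0.56), and it did not pass edgeR's test (adjusted p = 0.347). The sources used here do not say whether the counting used strand.

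The prostaglandin E synthases were near their IgG level. Ptges, the inducible membrane synthase mPGES-1, lies on chromosome 2 at 30889471 to 30931020. It was the rarest of the 8 genes, with 171, 127 and 92 counts in ezrin 1, ezrin 2 and IgG, or 8.52, 7.57 and 9.61 CPM. Both ezrin values lay under IgG, with a log2 fold of -0.26 that is smaller than its SE of 0.33. RefSeq places the noncoding gene Gm52550 and the pseudogene Gm13400 inside the span of Ptges, and they were not analysed here.

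Ptges2, a membrane-associated synthase that is expressed constitutively, lies on chromosome 2 at 32395890 to 32402740. It had 496, 304 and 156 counts, or 24.7, 18.1 and 16.3 CPM. Both ezrin libraries were above IgG, at 1.52 and 1.11 times its CPM, and they differed from each other by more than ezrin 2 differed from IgG. The log2 fold was 0.40 (SE 0.27). There were 2.90 (95% interval 2.43 to 3.47), 2.39 (1.94 to 2.97) and 1.70 (1.30 to 2.22) Ptges2 counts for each Ptges count in ezrin 1, ezrin 2 and IgG. The interval of IgG overlapped that of ezrin 2 and lay below that of ezrin 1.

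Ptges3 encodes p23, known both as a cytosolic prostaglandin E synthase and as a co-chaperone that stabilizes client-bound Hsp90. It lies on chromosome 10 at 128058982 to 128077254. It held most counts of the group, 7393, 7026 and 4007, or 54.4%, 53.2% and 69.4% of the counts of the 8 genes in ezrin 1, ezrin 2 and IgG. Its CPM were 368, 419 and 419, so that ezrin 2 and IgG had the same value to 3 digits. The log2 fold was -0.09 (SE 0.22). After cyclic loess normalization, which adjusts for expression level, it was -0.53 and also not called. RefSeq lists a pseudogene of this gene, Ptges3-ps, and the sources used here do not say how reads that match both were handled. The related gene Ptges3l, looked up because of its name, had 69, 67 and 16 counts and a log2 fold of 1.15 (SE 0.53), and it did not pass edgeR's test (adjusted p = 0.0731).

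Ptgr1 had the largest ezrin over IgG difference of the 8 genes. It encodes prostaglandin reductase 1, also known as leukotriene B4 12-hydroxydehydrogenase, which uses NADPH to reduce oxidized prostaglandins and other lipid enones. It lies on chromosome 4 at 58965590 to 58987131. Its counts were 958, 942 and 103 in ezrin 1, ezrin 2 and IgG, or 47.7, 56.2 and 10.8 CPM. Both ezrin libraries stood far above IgG, at 4.44 and 5.22 times its CPM. The mean was 52.0 ± 5.95 CPM (SD, n = 2), and the log2 fold was 2.27 (SE 0.30), of rank 6 among the 8604 genes averaging 10 CPM or more and rank 128 among all 12478 genes tested.

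Ptgr2 encodes prostaglandin reductase 2, which reduces 15-keto prostaglandins, and lies on chromosome 12 at 84285237 to 84315832. Its counts were 1138, 1390 and 390, or 56.7, 82.9 and 40.8 CPM. Both ezrin libraries were above IgG, at 1.39 and 2.03 times its CPM, with a log2 fold of 0.77 (SE 0.26). It was called by edgeR and not by DESeq2 or after cyclic loess. Within a library there were 0.842 (95% interval 0.772 to 0.918) and 0.678 (0.623 to 0.737) Ptgr1 counts for each Ptgr2 count in the ezrin libraries and 0.264 (0.210 to 0.329) in IgG. Ptgr1 over Pla2g4a, in contrast, was 0.507 (0.469 to 0.548) and 0.453 (0.419 to 0.490) with ezrin antibody and 0.446 (0.350 to 0.565) with IgG, with overlapping intervals.

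The spread between the ezrin libraries, which the choice of the genes did not use, was uneven over the group. The CPM of ezrin 2 over ezrin 1 was 1.46 (95% interval 1.35 to 1.58, counting error only) for Ptgr2, 1.32 (1.24 to 1.40) for Pla2g4a and 0.733 (0.634 to 0.847) for Ptges2. It was 1.18 (1.07 to 1.29) for Ptgr1 and 1.14 (1.10 to 1.17) for Ptges3, and the intervals of Ptgs1, Ptgs2 and Ptges included 1. On the log2 scale the absolute ratio was 0.55 for Ptgr2, equal to the 95th percentile over 8603 genes averaging 10 CPM or more (0.55), and 0.02 for Ptgs2. The median over those genes was 0.19.

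Levels of different genes can be compared only per length, for which the deposited RPKM (reads per kilobase of gene per 1e6 reads) were used. The gene lengths implied by count over RPKM were 6391 bases for Pla2g4a, 3884 for Ptgs1, 4580 for Ptgs2, 3931 for Ptges, 5058 for Ptges2, 2217 for Ptges3, 2296 for Ptgr1 and 5929 for Ptgr2, the same in each library. Ptges3 was highest in each library, at 139, 163 and 123 RPKM in ezrin 1, ezrin 2 and IgG, and Ptges lowest, at 1.82, 1.66 and 1.59. With ezrin antibody the order below Ptges3 was Ptgr1 (17.4 and 21.1 RPKM), Pla2g4a (12.4 and 16.7), Ptgs2 (12.3 and 12.8), Ptgr2 (8.03 and 12.0), Ptges2 (4.10 and 3.09) and Ptgs1 (2.29 and 2.49), in both libraries. With IgG it was Ptgs2 (9.97 RPKM), Ptgr2 (4.46), Ptgr1 (3.04), Pla2g4a (2.45), Ptgs1 (2.15) and Ptges2 (2.09).

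Among neighbours in the ezrin order, Pla2g4a (14.5 ± 3.07 RPKM, SD, n = 2) and Ptgs2 (12.5 ± 0.368) did not differ beyond the spread of the ezrin libraries, and neither did Ptgs2 and Ptgr2 (10.03 ± 2.84). Ptgr1 (19.3 ± 2.56 RPKM) exceeded Pla2g4a in both libraries by more than the SD of either, per length by 1.41 (95% interval 1.30 to 1.53) and 1.26 times (1.17 to 1.36). The level of Pla2g4a per length was 1.01 (95% interval 0.939 to 1.08) times that of Ptgs2 in ezrin 1 and 1.31 (1.21 to 1.41) times in ezrin 2, where counting error does not span equality. In the IgG library it was 0.246 (0.211 to 0.286) times that of Ptgs2. On the RPKM scale both ezrin libraries lay above IgG for all 8 genes, as they did for 60.5% of all genes tested. RPKM are relative to a read total larger than the counts in the tables, which made up 82.3%, 83.2% and 68.7% of it in ezrin 1, ezrin 2 and IgG. The median log2 fold of all genes moved from -0.02 to 0.34 with log2(RPKM + 0.1), and those of Ptgs1 (0.15), Ptges (0.12), Ptges3 (0.30) and Ptgs2 (0.33) lay below that median.

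**Figure D4:**
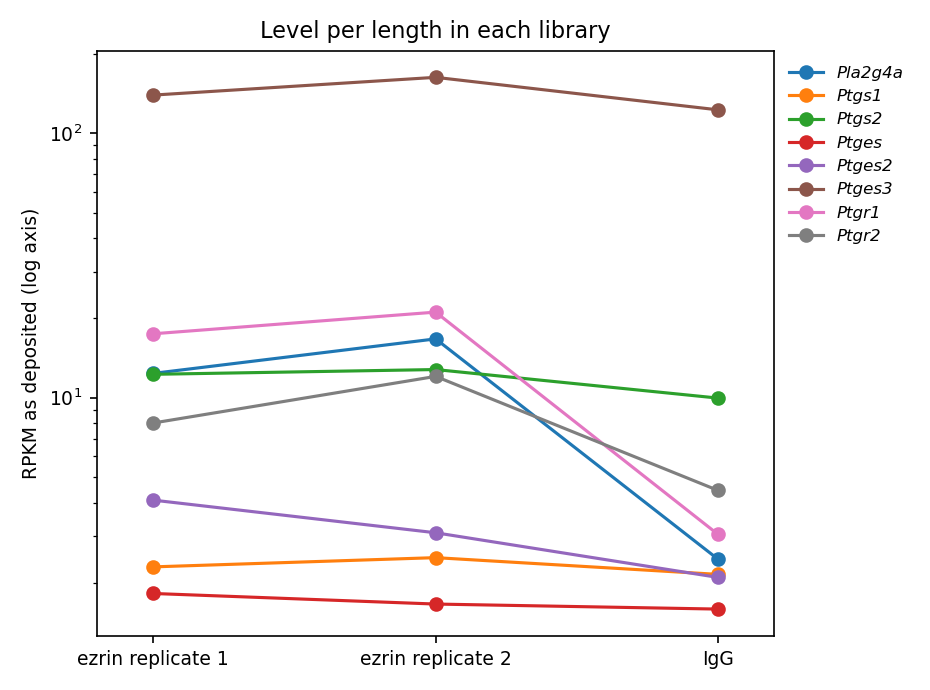
Deposited RPKM (log axis) of the 8 enzyme genes in the 3 libraries, with a line joining the values of each gene. Ptges3 is highest and Ptges lowest throughout. Ptgr1, Pla2g4a and Ptgs2 have ranks 2, 3 and 4 of 8 in both ezrin libraries and ranks 4, 5 and 2 with IgG. In ezrin 1 Pla2g4a (12.4 RPKM) and Ptgs2 (12.3 RPKM) are nearly equal.

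Other genes of the route, partners of p23 and relatives of the reductases were taken from lists of 93 genes. Of these, 50 were expressed enough to be tested. The lists were drawn up with earlier results of these data known, so their calls are a description. Of the 50, 18 were higher and 7 lower by edgeR, against 19.0% and 17.4% of all genes tested. Their median log2 fold was 0.16. The same shares over all genes apply to the counts of each list below. Of the 18 higher, 10 were in the list of Hsp90 and its partners. Outside the list of Hsp90 and its partners, 8 of 39 were higher and 7 lower. The lower calls depended on the tool, with 2 of 50 by DESeq2 and 2 by limma on log2(RPKM + 1). So did those over all 12478 genes, with 2171 by edgeR, 1101 by DESeq2 and 964 by limma on log2(RPKM + 1).

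Among other lipases that free arachidonic acid or related lipids, 12 of 25 were tested, 1 was higher and 2 lower, with a median log2 fold of -0.21. The lysosomal phospholipase Pla2g15 was higher, at 17.4 ± 0.0118 CPM (SD, n = 2) against 9.93 CPM (log2 fold 0.81, SE 0.29, edgeR adjusted p = 0.0204), although DESeq2, cyclic loess and a filter at a mean of 10 CPM each left it uncalled. The secreted phospholipase Pla2g12a was lower, at 34.7 ± 3.10 against 59.8 CPM (log2 fold -0.78, SE 0.24, edgeR adjusted p = 0.00583), as was the diacylglycerol lipase Dagla, at 27.4 ± 8.52 against 46.8 CPM (log2 fold -0.77, SE 0.25, edgeR adjusted p = 0.00723), which was not called by DESeq2. Neither was called on the RPKM scale. The calcium-independent phospholipase Pla2g6, at 35.8 ± 10.6 CPM against 51.3 CPM, and the secreted Pla2g5, at 20.9 ± 1.77 against 21.6 CPM, were not called. Of the other members of the cytosolic phospholipase family, looked up because of that kinship, Pla2g4c had 11, 9 and 9 counts in ezrin 1, ezrin 2 and IgG and was not called, and Pla2g4b, Pla2g4d, Pla2g4e and Pla2g4f had at most 7 counts in any library. Pla2g4a thus had the most counts of the family in each library.

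Genes that activate free arachidonic acid or return it to phospholipids were called in both directions at close to the shares over all genes. Of 10 tested, 2 were higher and 2 lower, against 19.0% and 17.4% of all genes tested, with a median of -0.27. The acyl-CoA synthetases Acsl1 (83.0 ± 8.12 CPM against 36.0, log2 fold 1.21, SE 0.26, edgeR adjusted p = 4.03e-05) and Acsl3 (43.6 ± 4.47 against 20.3, log2 fold 1.10, SE 0.27, edgeR adjusted p = 0.000332) were higher. Acsl4, which prefers arachidonic acid, was at 62.4 ± 11.8 against 41.0 CPM and just missed the threshold (log2 fold 0.61, edgeR adjusted p = 0.0501), and Acsl5 was not called (-0.12). The acyltransferase Lpcat4, at 46.9 ± 11.3 against 69.6 CPM, was not called either (-0.57, edgeR adjusted p = 0.0525). The acyltransferases Mboat7 (log2 fold -1.15, edgeR adjusted p = 5.83e-05) and Lpcat3 (-0.91, edgeR adjusted p = 0.00208), which put arachidonic acid back into phospholipids, were lower by edgeR. On the RPKM scale neither was called, and DESeq2 did not call Lpcat3.

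Of other terminal prostanoid synthases, 3 of 9 were tested, 1 was higher and 1 lower. Akr1b3, an aldo-keto reductase that can make prostaglandin F2 alpha, was higher, at 180.5 ± 9.66 CPM (SD, n = 2) against 69.7 CPM (log2 fold 1.37, SE 0.25, edgeR adjusted p = 1.29e-06). The thromboxane synthase Tbxas1 had 8, 5 and 18 counts in ezrin 1, ezrin 2 and IgG and was called lower (log2 fold -2.39, SE 0.83, edgeR adjusted p = 0.0142), but only 4 of 8 alternatives called it. Cbr3 was not called. The prostaglandin D synthase Ptgds and the synthase Prxl2b had no count in any library, and the prostacyclin synthase Ptgis had 1. In the route of inactivation, the dehydrogenase Hpgd had no count, while the exporter Abcc4 (31.2 ± 1.89 against 35.0 CPM) and Zadh2 (17.0 ± 0.618 against 11.4 CPM), a further 15-keto prostaglandin reductase, were not called. Neither was the transporter Slco2a1, with 10, 7 and 9 counts. In this list edgeR called 0 of 3 tested genes (1 higher at an unadjusted p under 0.05), as did DESeq2.

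Prostanoid receptors were rare in every library. The summed CPM of the 9 receptors was 2.94 and 4.71 with ezrin antibody and 12.2 with IgG. Ptger1 had 33, 46 and 63 counts (log2 fold -1.59, SE 0.43, edgeR adjusted p = 0.00144) and Ptger4 had 3, 3 and 17 counts (-3.38, SE 0.96, edgeR adjusted p = 0.0022) in ezrin 1, ezrin 2 and IgG. Both were called lower by edgeR and neither by DESeq2. Of 3 receptors tested none was higher, also at an unadjusted p under 0.05. The prostacyclin receptor Ptgir had 21, 25 and 29 counts and was not called, and Ptger3, Ptgdr and Tbxa2r had no count.

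Of the leukotriene genes, Lta4h, which makes leukotriene B4, a substrate of Ptgr1, was higher. It stood at 134 ± 19.2 CPM (SD, n = 2) against 47.3 CPM (log2 fold 1.50, SE 0.26, edgeR adjusted p = 1.98e-07). The lipoxygenase Alox5, whose product Lta4h needs, had 0, 0 and 9 counts, and its activating protein Alox5ap had 37, 17 and 7 counts and was not called, as Ltc4s was not. Lta4h was among the 11 of 25 called genes of these lists that each of the 9 alternative analyses also called, as were Acsl1, Acsl3 and Akr1b3.

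Of 11 genes of Hsp90, its co-chaperones and casein kinase 2, which phosphorylates p23, 10 were called higher, against 19.0% of all genes tested. The remaining gene, Csnk2a1, was not called (log2 fold -0.22), and the median of the 11 was 1.01. The list was drawn up with earlier results of these data known, so nothing about partners of p23 is read from its count. The cytosolic chaperones Hsp90ab1 (9910 ± 586 CPM against 2887) and Hsp90aa1 (1765 ± 437 against 516) each had a log2 fold of 1.78, and the adaptor Stip1 (1349 ± 98.3 against 442 CPM) one of 1.61. The SE were 0.19, 0.23 and 0.23, with edgeR adjusted p = 1.05e-17, 8.81e-13 and 1.38e-10. The other higher genes were Ppid (1.43), Ahsa1 (1.13), Csnk2b (1.01), Csnk2a2 (0.84), Fkbp4 (0.81), Fkbp5 (0.76) and Cdc37 (0.68), all given as log2 folds with edgeR adjusted p of at most 0.0151. After cyclic loess Cdc37, Csnk2a2, Fkbp4 and Fkbp5 were not called. Whether Ptges3 differed from its partners was not tested.

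Tested relatives of Ptgr1 and Ptgr2 in the medium-chain reductase family had log2 folds from -0.17 to 0.99, beside 2.27 for Ptgr1 and 0.77 for Ptgr2. Ptgr1 and the list were chosen with results of these data known, so nothing is read from their order. By edgeR 3 of 6 were called higher, against 19.0% of all genes tested. Those higher were Mecr (log2 fold 0.99, edgeR adjusted p = 0.00121), a reductase of mitochondrial fatty acid synthesis, Rtn4ip1 (0.92, edgeR adjusted p = 0.00642) and Vat1 (0.91, edgeR adjusted p = 0.000382). Cryz (-0.17), Cryzl1 (0.42) and Zadh2 (0.58) were not called. Vat1 was the most abundant, at 744 ± 93.0 CPM (SD, n = 2) against 397 CPM, and was not called after cyclic loess, and Rtn4ip1 was not called by DESeq2.

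**Figure D5:**
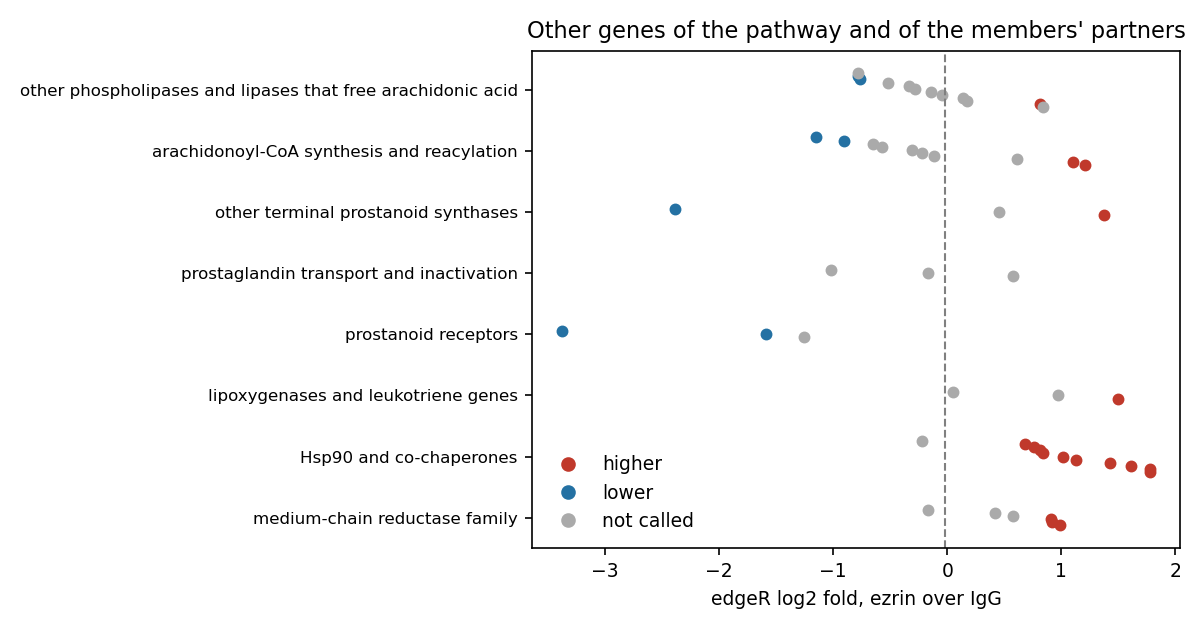
Each point is the edgeR log2 fold of ezrin over IgG of 1 tested gene, in rows by list, with genes called higher in red, lower in blue and not called in grey, and the dashed line is the median of all genes tested (-0.02). In the row of Hsp90 and its co-chaperones 10 of 11 genes are called higher, while the lipase and acyltransferase rows spread to both sides of the dashed line.

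The tested genes next to a member were Atp5b, called higher, Dnajc25, Prrx2 and Ptgs2os, called lower, and Naca, Tor1b and Zfp410, not called. Over all genes tested 19.0% were called higher and 17.4% lower, and these neighbours are too few to set against those shares. Atp5b, a subunit of mitochondrial ATP synthase whose gene lies 6052 bases beyond Ptges3, was higher (3466 and 3559 CPM against 1082, log2 fold 1.70, SE 0.22, edgeR adjusted p = 5.68e-13), and Naca on the other side was not called (0.47). Dnajc25, next to Ptgr1, was lower (log2 fold -0.93, SE 0.27, edgeR adjusted p = 0.00274), and so was Prrx2, next to Ptges (-0.73, SE 0.23, edgeR adjusted p = 0.00799). Neither of these lower genes was called by DESeq2 or on the RPKM scale. Tor1b, on the other side of Ptges, and Zfp410, separated from Ptgr2 by 677 bases, were not called. No RefSeq gene overlapped the span of a member other than Ptges.

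The genes with the most similar pattern were sought by the distance between log2(CPM + 1) values, centred on each gene's mean, over the 3 libraries among 8604 genes. For Pla2g4a the nearest were Aifm1 (distance 0.050), Polr2b (0.061) and Ndufs1 (0.062), and for Ptgr1 they were Hars (0.044), Nup107 (0.048) and Aifm1 (0.076). Within 0.1 of Pla2g4a and Ptgr1 lay 3 and 4 genes. Ptgr2 had 22 genes within 0.1, with Pls1, Cetn3 and Bet1 nearest. Between 109 and 355 genes lay as close to Ptgs1, Ptgs2, Ptges2 and Ptges3. Their nearest genes were Zfp426, Zhx3 and Zbtb9 for Ptgs1, Bap1, Aar2 and Mfn2 for Ptgs2, Twist1, Bola1 and Habp4 for Ptges2, and Inip, Rhbdd1 and Prdx1 for Ptges3. Ptges fell below 10 CPM and was not compared. This likeness rests on 3 libraries and largely repeats the ezrin over IgG contrast by which the group was chosen. Nothing is therefore read from it.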

How the data were processed

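RNA from ezrin (2 libraries) and IgG (1 library) immunoprecipitates was sequenced in paired reads of 150 bases, per the labels' protocols, which name both rRNA depletion and polyA RNA. The deposited files hold whole-number counts, not normalized, and RPKM, both by gene symbol and library. The build was GRCm38, per the submitters' processing notes. The aligner, counter, annotation and use of strand were not given in the sources used here. Counts were tested with edgeR 4.0.16 in R 4.3.3 (quasi-likelihood test, TMM, filterByExpr, Benjamini-Hochberg adjustment over 12478 genes at 0.05). There was 1 residual degree of freedom, and the IgG library was assumed to vary like the ezrin libraries. The estimated prior degrees of freedom were infinite. The variance in each gene's test was thus pooled over genes, and a small p does not rest on that gene's own replicate spread. The procedure was also run on simulated counts with a shared dispersion and few changed genes. That run cannot show how it performs with many changed genes or with the unknown spread of IgG. SE are the size of the log2 fold over the square root of F. Lengths were taken from count over RPKM, scaled on small RNA genes of known length (40 of 49, 35 of 39 and 38 of 46 within 0.1% of the median). Intervals are exact Clopper-Pearson intervals at 95%. Alternatives used DESeq2 1.42.0, limma 3.58.1 and other filters and scalings. Gene spans, neighbours and start sites come from RefSeq (GRCm38.p6), in which all 8 members matched by symbol. The members and lists were chosen with earlier results of these data known. Named were the members, the called and the 3 most abundant genes of each list, neighbouring genes, the nearest patterns and cell type markers of at least 10 CPM. Genes without a row or a count that this rule takes are mostly left unnamed.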

Additional observations from a re-analysis of the deposited data

How the results depend on the processing

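Of the 8 members, 3 were called higher in 7 of the 9 alternative analyses with a test and 2 after cyclic loess and with DESeq2, where Ptgr2 was lost, and 0 were lower in any. Pla2g4a ranged from 1.92 to 2.50 and Ptgr1 from 2.05 to 2.62 in log2 fold over all settings. Ptges was not tested at a mean of at least 10 CPM. The median of the members moved from 0.17 to 0.26 without a filter, 0.28 at a mean of at least 10 CPM, 0.29 with library size only, 0.43 with log2(RPKM + 1) and 0.53 with log2(RPKM + 0.1). It was 0.20 without ezrin replicate 2 and 0.07 without ezrin replicate 1, as ratios of 1 library to 1 with no test. Over all genes, limma called 3734 higher and 964 lower on log2(RPKM + 1) and 3745 and 843 on log2(RPKM + 0.1), and DESeq2 called 1101 lower. Of the 50 genes of the pathway lists, 2 were lower with DESeq2, 2 with log2(RPKM + 1) and 1 with log2(RPKM + 0.1), against 7. The cause was not tested. Of 87 other values for single members, 23 moved by more than the spread between the ezrin libraries, and 0 values of called members changed sign, while Ptgs1, Ptgs2, Ptges and Ptges3 turned positive on the RPKM scale without a call, as did Ptgs2 without a filter (0.03) and with library size only (0.06) and Ptges3 with library size only (0.03). No paired analysis was possible because the groups share only 1 replicate number. With 1 IgG library, its own spread is unknown (SE over the log2 folds reached 0.83 for Tbxas1 and 0.96 for Ptger4, which had under 20 counts per library).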

Other observations

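A few genes of the route were too rare to be tested and had uneven counts. The lipoxygenase Alox5 had 9 counts in the IgG library and 0 in both ezrin libraries, and the prostaglandin D synthase Hpgds had 5 and 0. The lipoxygenase Alox8 had 8 counts in ezrin 1, 0 in ezrin 2 and 1 in IgG. These counts support no comparison.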
